A study of Mus musculus with 4 samples.

Results

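Fgf9, its receptor genes Fgfr1 and Fgfr2, and 6 genes that fibroblast growth factor (FGF) signalling induces as a brake or an output, Spry1, Spry2, Spry4, Dusp6, Etv4 and Etv5, were followed across the cell types of the early mouse gonad with and without the miR-17~92 microRNA cluster. They are 9 of the 21495 genes in the table. The members were chosen by the levels of Spry4 and Fgf9, which were low in pre-supporting cells that lacked the cluster, so the values of pre-supporting cells are a description of what selected the genes and support nothing by themselves.

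FGFs are secreted ligands that bind receptor tyrosine kinases together with heparan sulphate, and the activated receptor drives the RAS and ERK kinase cascade. Signalling cells switch on their own inhibitors, the Sprouty proteins and the ERK phosphatase DUSP6, together with the ETS transcription factors ETV4 and ETV5, so that these transcripts are widely used as a readout of FGF and ERK activity. In the XY gonad the transcription factor SOX9 and FGF9 sustain each other while supporting precursors become Sertoli cells, and FGF9 acting through FGFR2 opposes the ovarian WNT4 programme.

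Single-cell RNA-seq had been performed on gonads with the attached mesonephros, in 1 sample for each of 4 groups: XY control at E11.5 (E for embryonic day), XY KO at E11.5, XY KO at E11.75 and XX control at E11.5. Both KO samples carried a homozygous deletion of miR-17~92 made by genome editing in embryonic stem cells. These embryos and the XY controls were grown by tetraploid complementation from stem cells of a C57BL/6J and 129 hybrid background. The XX controls came from a C57BL/6J and 129 cross, which the study made for a similar background. Gonad pairs from several embryos were pooled for each sample and fixed in methanol. No control was collected at E11.75 among these samples, so deletion and stage cannot be told apart when the E11.75 KO is set against the E11.5 control, and XX cells also differed in breeding, filtering and depth. With 1 sample per group there is no replicate check and no p-value. Intervals are exact 95% intervals and cover counting error only.

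The 52745 cells held 301219830 unique molecular identifiers (UMIs), from 37841392 in the XY KO at E11.75 to 105192238 in the XY control, and the median per cell ran from 3893 in the XY control to 15509 in the XX control. Cell barcodes occurring in more than 1 sample were 285 of 52400. Levels are CPM, the UMIs of a gene scaled by all UMIs of the same cell type and sample. They compare a gene with itself and not with another gene, and a gene was called higher or lower where it differed at least 2-fold with at least 20 UMIs over both samples. Pre-supporting cells, deposited as bipotential progenitors, expressed all 5 of their markers (Wt1, Nr5a1, Gata4, Lhx9 and Runx1), which summed to between 1244 and 1854 CPM. These markers are shared with related types. In the XY control Runx1 was highest in pre-supporting cells, Wt1, Nr5a1 and Gata4 in Sertoli cells, and Lhx9 in coelomic epithelium.

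The cluster encodes 6 mature microRNAs with 4 seeds, which are shown because they are what the deletion removes. The hairpins lie in Mir17hg on chromosome 14, plus strand, and the mature sequences span positions 115043684 to 115044496 (RefSeq sequences on GRCm38.p6). Bases 2 to 8, the seed, are in capitals.
mmu-miR-17-5p: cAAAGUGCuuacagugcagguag
mmu-miR-20a-5p: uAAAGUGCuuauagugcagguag
mmu-miR-18a-5p: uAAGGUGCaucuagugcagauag
mmu-miR-19a-3p: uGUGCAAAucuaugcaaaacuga
mmu-miR-19b-3p: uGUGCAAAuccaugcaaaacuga
mmu-miR-92a-3p: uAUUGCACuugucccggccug

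None of the 9 members had an 8mer site, which pairs with the whole seed and has an A opposite base 1, in its longest annotated 3′ UTR (GENCODE M21, GRCm38), and 12.3% of the 17292 genes with a 3′ UTR had one. Counting 7-base sites as well, 4 of the 9 members held a site, beside 43.3% of genes. Those were Fgf9, Dusp6, Etv5 and Spry4. The sites in Fgf9, Dusp6 and Etv5 are printed as examples, and these 3 genes had lower CPM in pre-supporting cells of the KO at E11.5 than in the XY control. Spry4 had more sites, which are counted with its values. Each is the weakest of the searched kinds, a match to bases 2 to 7 followed by an A, shown in capitals on the strand of the transcript with 8 bases on either side.
Fgf9, miR-92 site at chr14:58111571-58111577, plus strand: ttttaagaTGCAATAttctggct
Dusp6, miR-92 site at chr10:99267269-99267275, plus strand: acctcaaaTGCAATActttgggt
Etv5, miR-19 site at chr16:22383089-22383095, minus strand: gctttgacTTGCACAattctttg
In the 3′ UTR they start at base 1993 of 3142 in Fgf9, base 970 of 1190 in Dusp6 and base 375 of 2161 in Etv5. The genes themselves span chr14:58070547-58112720, chr10:99263231-99267489 and chr16:22381309-22439719. A match describes letters in the annotated UTR and not binding.

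In XY control pre-supporting cells all 6 induced genes were detected, and in the XY KO at E11.5 their summed level was lower, at 42.1 CPM (95% interval 37.1 to 47.6) beside 132.2 CPM (124 to 140), a log2 difference of -1.65 (-1.85 to -1.45). The XX control was at 39.4 CPM, and the log2 difference between the XY KO and the XX control at E11.5 was 0.10 (-0.16 to 0.35). Single members were not all alike in that pair. In the KO, 1 of 9 was called lower than in the XX control, Spry1, beside 4.68% of genes, and 1 higher, Fgf9, beside 3.54%. At E11.75 the KO sum was 140.3 CPM. Over single genes, 5 of 9 members were called lower in the KO at E11.5, Fgf9, Spry1, Spry4, Etv4 and Etv5, beside 4.21% of the 12596 genes tested, and the median log2 difference was -1.20 for the members and -0.10 for all genes tested. This is the contrast on which the list was picked, and nothing is read from the count.

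Spry4, a Sprouty protein that blunts receptor tyrosine kinase signalling, showed the largest difference of the 9. Its 3′ UTR of 3559 bases held 4 sites of 7 bases, 1 for miR-17, 1 for miR-18 and 2 for miR-19. It stood at 25.9 CPM in the XY control (204 UMIs), 2.49 CPM in the XY KO at E11.5 (15 UMIs), 17 CPM in the XY KO at E11.75 (78 UMIs) and 1.92 CPM in the XX control (13 UMIs). The KO at E11.5 and the XX control were thus 10.1-fold and 13-fold below the XY control, and the later KO was within 1.52-fold of it. The log2 difference of the KO at E11.5 was -3.33 (-4.24 to -2.62), rank 24 from the lowest of 12596 genes, and that of the KO at E11.75 was -0.60 (-1.0 to -0.22). The technical replicates of a sample, called runs here, held different cells. They gave 27.9 and 23.7 CPM in the XY control (116 and 88 UMIs) and 3.83 and 1.27 CPM in the KO at E11.5 (11 and 4 UMIs). Runs are technical replicates of a sample and not biological ones.

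Fgf9, the ligand, stood at 9.26 CPM in the XY control (73 UMIs), 2.65 CPM in the KO at E11.5 (16 UMIs), 2.61 CPM in the KO at E11.75 (12 UMIs) and 1.18 CPM in the XX control (8 UMIs). Both KO samples were low, with log2 differences of -1.77 (-2.68 to -1.01) and -1.78 (-2.84 to -0.93), and Fgf9 did not share the higher level of Spry4 at the later stage. Most Fgf9 UMIs of the XY control came from cells that held a Sox9 or Sry UMI. Among the 1143 XY control pre-supporting cells with no UMI of either gene, Fgf9 was at 2.48 CPM (13 UMIs), and in the other 498 cells it was at 22.7 CPM (60 UMIs). Of the KO cells at E11.5, 976 of 1084 had no Sox9 or Sry UMI, and all 16 Fgf9 UMIs came from them (2.97 CPM). Restricted to such cells, the log2 difference was 0.25 at E11.5, from 16 and 13 UMIs, and -0.72 at E11.75, from 5 and 13 UMIs. The lower call thus ended, and counts this low do not settle a direction. Cells were split without thinning, so the classes also depend on depth. Cells that held either gene were lower in both KO samples. Fgf9 had 0 UMIs in 108 such cells of the KO at E11.5. It was at 6.49 CPM (7 UMIs) in 196 such cells of the KO at E11.75, beside 22.7 CPM in the XY control.

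Spry4 behaved otherwise in the same split. XY control cells without Sox9 or Sry held 25.8 CPM of Spry4 and those with either held 26.1 CPM, and the log2 difference of the KO at E11.5 among cells without was -3.37. Etv5 gave 45.6 and 56.7 CPM in these classes of the XY control, with a difference among cells without of -2.12. Among cells without, the differences of Etv4, Spry1, Dusp6 and Spry2 in the KO at E11.5 were -1.22, -1.06, -0.95 and -0.80. The split uses the levels on which the list was picked and is a description. Sox9 itself was at 199.6, 20.1, 88.0 and 9.29 CPM in XY control, KO at E11.5, KO at E11.75 and XX control pre-supporting cells, and the summed level of 5 Sertoli markers, none of them at 0 in any sample, was 209.0, 27.9, 99.6 and 12.98 CPM in the same order. Most of that sum is Sox9. In the XY control and the KO at E11.5, Ptgds was at 5.58 and 3.65 CPM, Sox8 at 1.27 and 0.829 CPM, Dhh at 1.14 and 0.995 CPM and Amh, in the other direction, at 1.40 and 2.32 CPM, all from 44 UMIs or fewer. Sox9 was thus low in the KO at E11.5 and the XX control like Spry4 and Etv5. Between the XY control and the KO at E11.5 the other Sertoli markers were less than 2-fold apart. In the XX control Ptgds was at 1.92 CPM, Sox8 at 0.442 CPM, Dhh at 1.03 CPM and Amh at 0.295 CPM. All of these were below the XY control and came from 13 UMIs or fewer.

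Marker lists of other types, 4 genes each, were also summed in pre-supporting cells. In the XY control, KO at E11.5, KO at E11.75 and XX control, germ cell markers summed to 18.5, 7.13, 12.9 and 10.8 CPM with none at 0. That sum was highest in the XY control and lowest in the KO at E11.5. Germ cells had the highest Etv4 and Etv5 of all types. Markers of the coelomic epithelium summed to 52.5, 99.0, 54.3 and 61.2 CPM and those of the adrenal cortex to 107.9, 36.0, 25.5 and 162.9 CPM, again with none at 0. Of the coelomic list, Krt18 (73.3 CPM in the KO at E11.5) and Krt19 were highest in mesonephric epithelium or tubules in every sample. The high adrenal sum of the XX control came from Cyp11a1, at 142.0 CPM beside 70.4 CPM in the XY control. In the XX control Cyp11a1 was highest in pre-supporting cells themselves, so it did not mark adrenal cells there. The other adrenal markers were lower in the XX control, with Star at 14.2 beside 27.7 CPM, Hsd3b1 at 3.10 beside 5.83 CPM and Mc2r at 3.69 beside 4.06 CPM. Immune markers summed to 10.02, 2.49, 0.654 and 7.82 CPM, with Ptprc at 0 in the KO at E11.75. Markers of red blood cells summed to 257.9, 155.7, 240.1 and 113.3 CPM with none at 0, mostly from Hba-a1 (227.4 CPM in the XY control and 115.3 CPM in the KO at E11.5), whereas Hbb-bt was at 26.1 and 37.8 CPM. In the same order, endothelial markers summed to 22.8, 23.1, 23.5 and 8.70 CPM and interstitial ones to 246.3, 273.8, 327.3 and 258.6 CPM. Those of mesonephric mesenchyme summed to 179, 223, 281 and 174 CPM, and none of these lists had a marker at 0. Neural crest markers summed to 9.39, 6.47, 11.1 and 5.46 CPM, with Sox10 and Foxd3 at 0 in both KO samples. The part of these markers in the differences of the members was not tested.

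**Figure D1:**
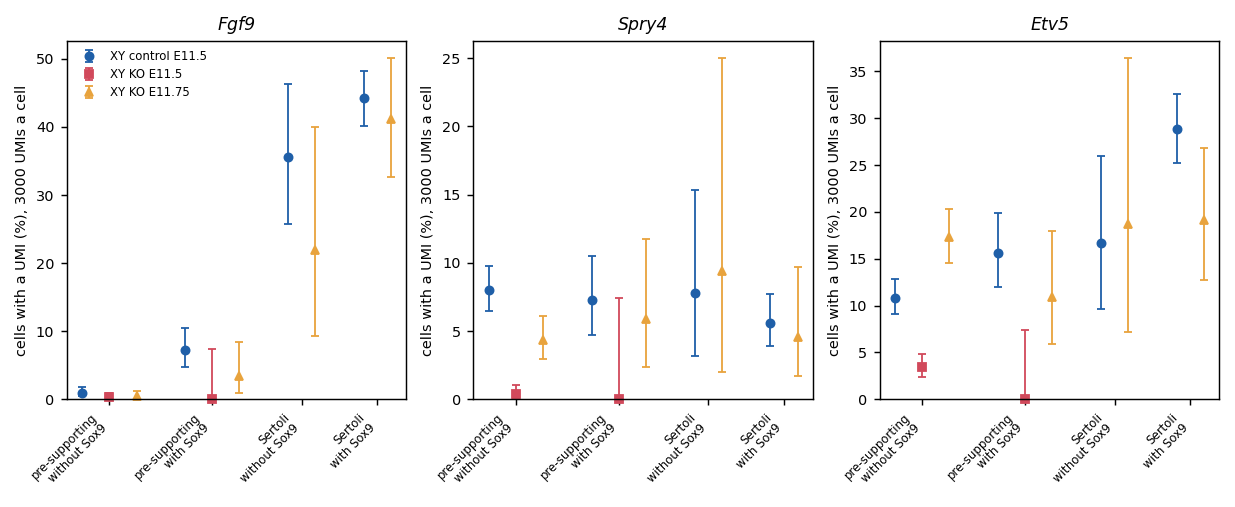
Share of cells with a UMI of Fgf9, Spry4 or Etv5 (percent, after every cell was thinned to 3000 UMIs), in cells with and without a Sox9 UMI, with exact 95% intervals. Pre-supporting cells are drawn for the XY control and both KO samples, and Sertoli cells for the XY control and the KO at E11.75. In XY control pre-supporting cells Fgf9 is found in 7.25% of cells with Sox9 and 0.980% of cells without, whereas Spry4 is found in 7.25% and 8.01%.

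Etv5, an ETS factor that is also needed in the testis for stem cell maintenance, stood at 49.3, 9.79, 63.0 and 5.16 CPM in the XY control, KO at E11.5, KO at E11.75 and XX control (389, 59, 289 and 35 UMIs). Its log2 difference in the KO at E11.5 was -2.32 (-2.75 to -1.94), rank 65 of 12596. The E11.75 KO lay above the XY control, by 0.35 (0.13 to 0.58). Etv4, its close relative, stood at 7.74, 3.32, 11.77 and 2.65 CPM in the same order. At 2.29-fold lower it was just past the 2-fold limit in the KO at E11.5, and stayed past it in 11 of 14 alternatives. Dusp6, which removes the activating phosphates from ERK, stood just inside that limit, at 30.4, 16.8, 26.6 and 12.2 CPM and 1.81-fold lower at E11.5.

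Of the other Sprouty genes, Spry1 was at 7.86, 2.82, 6.54 and 5.90 CPM and Spry2 at 10.9, 6.97, 15.5 and 11.502 CPM in that order. Spry1 had a log2 difference of -1.45 (-2.35 to -0.69) in the KO at E11.5. Spry2 had -0.64 (-1.22 to -0.10). In the XX control neither was called, at -0.41 (-1.03 to 0.18) for Spry1 and 0.08 (-0.38 to 0.54) for Spry2. The XX control thus had Spry4, Etv4, Etv5, Dusp6 and Fgf9 called lower, 5 of 9 members beside 3.27% of genes, with the largest differences in Spry4 (-3.70, -4.69 to -2.95) and Etv5 (-3.24, -3.80 to -2.76).

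The receptors did not follow the induced genes. Fgfr1 stood at 30.3, 36.0, 49.2 and 22.1 CPM and Fgfr2 at 44.9, 66.3, 139.7 and 39.2 CPM in the XY control, KO at E11.5, KO at E11.75 and XX control. Fgfr2 was therefore highest in both KO samples, with log2 differences of 0.56 (0.35 to 0.77) at E11.5 and 1.64 (1.45 to 1.83) at E11.75. That made it the single member called higher in pre-supporting cells of the KO at E11.75, beside 6.66% of genes, while Fgf9 was the single one called lower, beside 3.13%. Fgfr2 was called higher in this comparison in other types too, Sertoli cells among them. The log2 differences were 1.33 in coelomic epithelium (4.13% of genes), 1.68 in interstitial progenitors (4.55%), 1.54 in supporting-like cells (6.32%) and 1.52 in endothelial cells (5.61%).

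**Figure D2:**
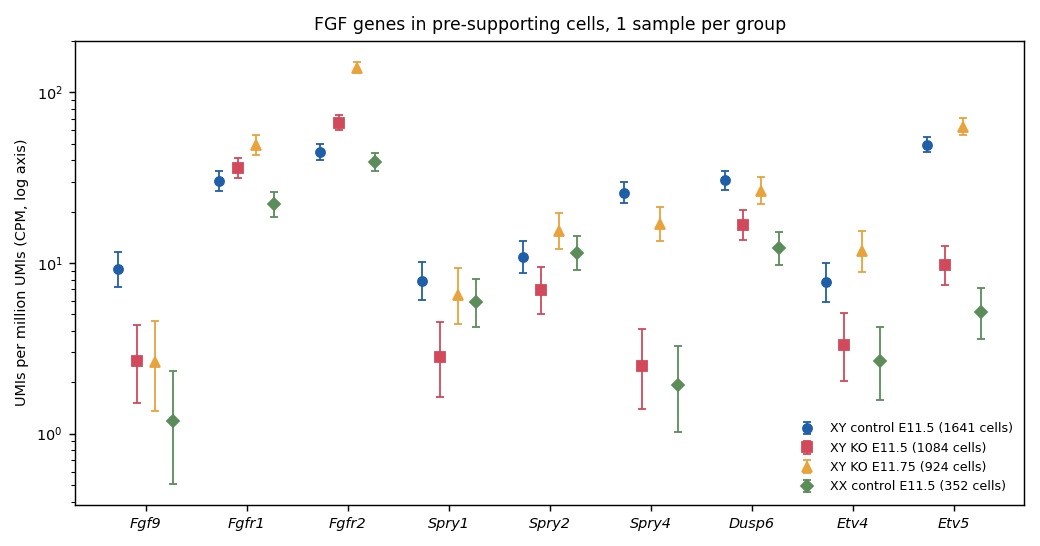
Level of each of the 9 members in pre-supporting cells (CPM, logarithmic axis) in the 4 samples, with exact 95% Poisson intervals. Spry4 and Etv5 are low in the XY KO at E11.5 and the XX control and high in the XY KO at E11.75, Fgf9 is low in all 3 samples beside the XY control, and Fgfr2 is highest in the XY KO at E11.75.

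Between the KO samples, 6 of 9 members were called higher at E11.75 than at E11.5, Fgfr2, Spry1, Spry2, Spry4, Etv4 and Etv5, beside 9.19% of genes. The median of all genes tested was itself shifted by 0.31 on the log2 scale in this comparison, and by 0.20 in that of the KO at E11.75 over the XY control. Spry4 (2.73, 1.96 to 3.68), Etv5 (2.68, 2.28 to 3.12) and Etv4 (1.80, 1.06 to 2.65) lay far beyond the shift and remained past 2-fold in all 10 alternatives tried. Fgfr2, Spry1 and Spry2, at 1.07 to 1.20, did not, and kept 2-fold in 4, 7 and 6 of the 10. Fgf9 differed by -0.01 (-1.23 to 1.15). The list was picked on low levels of Spry4 and Fgf9 in KO pre-supporting cells, and this comparison uses those levels. The alternatives reuse the same counts, so they are a description too.

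Counted by cell, with each cell thinned to 3000 UMIs, 30.8% of 1468 XY control pre-supporting cells held a UMI of at least 1 of the 6 induced genes (28.4 to 33.2%), beside 11.4% of 1030 in the KO at E11.5, 31.6% of 831 in the KO at E11.75 and 8.31% of 349 in the XX control. Cells with at least 2 of the 6 genes made up 5.18%, 0.777%, 4.57% and 0.287%. Shallower cells that were left out numbered 173, 54, 93 and 3. With so few UMIs of these genes in a cell the share follows the summed level, so fewer expressing cells and less RNA per cell cannot be told apart from it.

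For Spry4 alone the shares were 7.83%, 0.388%, 4.57% and 0.287% of thinned cells, and 10.7%, 1.38%, 7.68% and 3.12% of all cells at median depths of 4522, 5349, 4661 and 17498.5 UMIs. Immune cells, which are not known as a source of Fgf9, were counted beside them, although whether they express Spry4 was not tested and their marker C1qa was at 67.1 CPM in the XY control and 783.8 CPM in the KO at E11.5. Spry4 was found in 3.92% of 51 thinned immune cells of the XY control (0.909% of all 220, median depth 1488) and in 0 of 64 in the KO at E11.5 (0 of 73 unthinned, median depth 7040). Where no cell held a UMI, the limit is taken as 3 counts of the total, which allows up to 4.69% in the KO at E11.5 and, from 0 of 31 cells, up to 9.68% in the KO at E11.75. The pre-supporting shares of 0.388% and 4.57% lie below the limit of their own sample, so immune cells are too few to tell them from background. For Fgf9 the pre-supporting shares were 2.45%, 0.291%, 0.842% and 0.573% (3.60%, 1.48%, 1.19% and 1.70% unthinned), and 0 of 51 XY control immune cells held a UMI, which by the same 3 counts allows up to 5.88%. Each pre-supporting share of Fgf9 is below that limit too, whereas 43.1% of Sertoli cells of the XY control held one.

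Sertoli cells, the deposited supporting cells, were 752 in the XY control, 168 in the KO at E11.75, 24 in the KO at E11.5 and 2 in the XX control, and only the first pair is compared. Fgf9 was at 213.6 CPM in the XY control, and at 176.3 CPM in the KO at E11.75, a log2 difference of -0.27 (-0.52 to -0.04). Spry4 (20.9 and 18.5 CPM) and Etv5 (95.1 and 85.7 CPM) were close in the pair, with differences of -0.15 (-0.98 to 0.55) and -0.14 (-0.50 to 0.19). No member was called lower, beside 3.89% of genes, and 1 was called higher, beside 9.3%. That was Fgfr2, at 16.1 CPM (67 UMIs) in the XY control and 76.0 CPM (78 UMIs) in the KO, a difference of 2.23 (1.75 to 2.73). In the XY control Fgfr2 was lower in Sertoli than in pre-supporting cells (44.9 CPM).

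The coelomic epithelium, other cells of the same libraries, had all 6 induced genes low, of which 4 had been called lower in pre-supporting cells. This layer covers the gonad and gives rise to supporting and interstitial cells. All 6 were called lower in the KO at E11.5 and neither the ligand nor a receptor was, 6 of 9 members beside 2.65% of genes. The summed level was 57.6 CPM in the KO and 199.2 CPM in the XY control, a log2 difference of -1.79 (-1.93 to -1.66). Spry4 had 12.1, 1.5, 5.25 and 3.15 CPM in the XY control, KO at E11.5, KO at E11.75 and XX control, and a difference of -2.96 (-3.88 to -2.23) at E11.5.

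Etv4 had 24.1, 3.91, 13.5 and 6.94 CPM there, with a difference of -2.61 (-3.15 to -2.14), the largest for this gene in any cell type compared. Etv5 had 34.4, 8.52, 29.2 and 14.1 CPM. Dusp6, Spry1 and Spry2, of which Spry1 alone was called lower in pre-supporting cells, were all past 2-fold here. Dusp6 had 51.3, 16.3, 27.6 and 24.6 CPM, Spry1 had 25.6, 9.72, 12.1 and 15.6 CPM, and Spry2 had 51.8, 17.6, 30.6 and 31.3 CPM. Fgf9, by contrast, had 11.96, 9.82, 14.6 and 8.20 CPM, a difference of -0.28 (-0.68 to 0.11) at E11.5. The run values for Spry4 were 12.48 and 11.55 CPM in the XY control and 1.64 and 1.37 CPM in the KO at E11.5.

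The XX control coelomic epithelium lay between the XY control and the KO at E11.5, with a sum of 95.6 CPM and Spry4, Dusp6, Etv4 and Etv5 called lower, 4 of 9 members beside 4.25% of genes, though Dusp6 kept 2-fold in only 2 of 4 alternatives. The KO sum at E11.5 was below that of the XX control by -0.73 on the log2 scale (-0.91 to -0.55). At E11.75 the KO sum was 118.3 CPM, and Spry1 and Spry4 were still called lower than in the XY control, 2 of 9 beside 2.59%, with Spry4 at -1.17 and at -0.74 in deep cells alone. Fgfr2 was called higher there than in the XY control (1.33), 1 of 9 beside 4.13% of genes. Between the KO samples 4 members were called higher at E11.75, Fgfr2, Spry4, Etv4 and Etv5, beside 5.34% of genes, and Fgfr2 kept 2-fold in 2 of 4 alternatives. The log2 difference of the sum between the KO samples was 1.04 (0.86 to 1.21) here and 1.73 (1.52 to 1.95) in pre-supporting cells, and whether these cell types differ was not tested.

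Interstitial progenitors, which give rise to steroidogenic and stromal cells, had 5 of the 8 members that passed the minimum called lower in the KO at E11.5, beside 2.84% of genes. Spry4 was at 22.5 CPM in the XY control and 5.01 CPM in the KO, a log2 difference of -2.15 (-2.85 to -1.54). Spry2 was at 64.2 and 27.2 CPM, Spry1 at 44.9 and 21.2 CPM, Etv4 at 12.4 and 4.44 CPM and Etv5 at 21.3 and 10.2 CPM. Fgf9 did not reach 20 UMIs in this type. In the XX control 0 of 8 members were called lower beside 2.94% of genes, with a sum of 220.7 CPM next to 225.8 CPM for the XY control, and the KO sum at E11.5 of 101.1 CPM lay below the XX control by a log2 difference of -1.13 (-1.29 to -0.96). Spry1 and Etv5 of the KO at E11.5 stayed past 2-fold in 1 of 4 alternatives each (lowest size -0.94 and -0.91), and the other 3 calls in all 4. At E11.75 the KO sum was 203.8 CPM, and 4 members were called higher than in the KO at E11.5, Fgfr2, Spry4, Etv4 and Etv5, beside 7.88% of genes, of which Fgfr2 kept 2-fold in 1 and Etv4 in 2 of 4 alternatives.

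**Figure D3:**
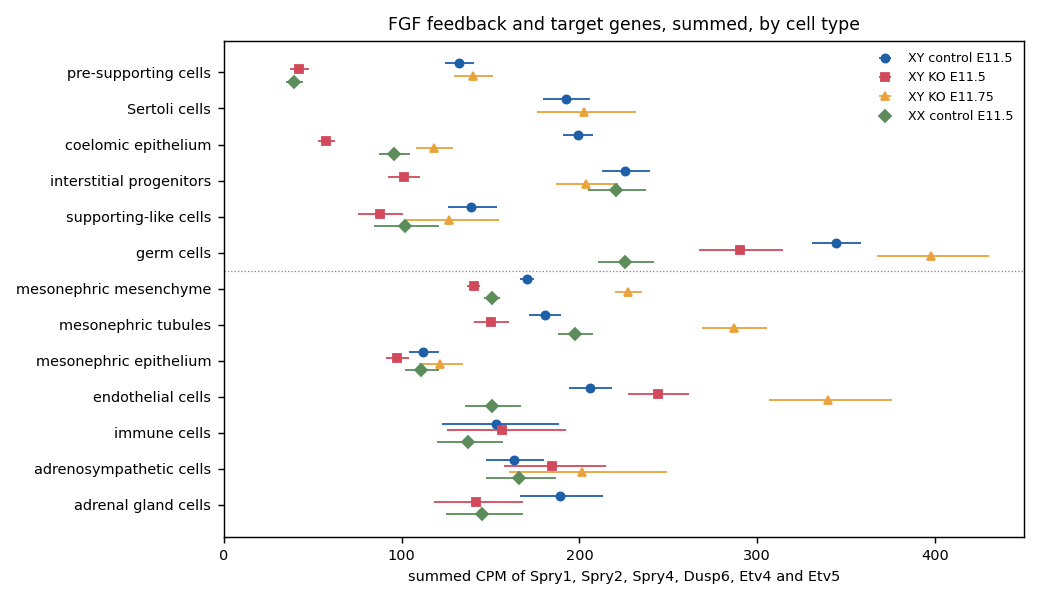
Summed level of the 6 induced genes (CPM) by cell type in the 4 samples, with exact 95% intervals. Pre-supporting cells, coelomic epithelium and interstitial progenitors show the XY KO at E11.5 far below the XY control, and the mesonephric types show smaller differences.

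The types of the mesonephros, the embryonic kidney beside the gonad, had smaller differences. In the KO at E11.5, 0 of 9 members were called lower in mesonephric mesenchyme (3.14% of genes), mesonephric tubules (3.87%) and mesonephric epithelium (2.49%). The log2 differences of the summed level were -0.28 (-0.33 to -0.23), -0.27 (-0.38 to -0.15) and -0.20 (-0.34 to -0.06). They were slightly lower than the all-gene medians of -0.10, -0.09 and -0.08. In germ cells the sum was at 290.3 CPM in the KO at E11.5 and 344.6 CPM in the XY control, and in endothelial cells it was higher in the KO, at 244.0 and 206.1 CPM. Supporting-like cells had 87.6 and 139.3 CPM, a difference of -0.67 (-0.93 to -0.42). Whether gonadal and mesonephric types differ was not tested. Single members called lower in the KO at E11.5 in the remaining types were Etv5 in supporting-like cells (-1.61, beside 2.54% of genes), Spry1 in germ cells (-1.16, beside 1.57%), Fgfr2 in endothelial cells (-1.10, beside 4.2%), and Dusp6 in adrenal gland cells (-1.03, beside 4.39%). Pairs were Fgfr1 (-1.62) and Spry2 (-1.13) in immune cells, beside 10.1% of genes, and Fgfr1 (-1.03) and Fgfr2 (-1.55) in adrenosympathetic cells, beside 4.72%. Dusp6 in adrenal gland cells kept 2-fold in 0 of 4 alternatives, Fgfr1 in adrenosympathetic cells in 1, and Etv5 in supporting-like cells and Fgfr2 in endothelial cells in 3.

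At E11.75 the mesonephric types had members called higher than in the E11.5 XY control. In mesonephric tubules these were Fgf9, Spry4, Etv4 and Etv5, 4 of 9 beside 3.13% of genes, and Etv5 (1.10) kept 2-fold in 2 of 4 alternatives. Etv4 there was at 52.0 CPM (176 UMIs) in the KO at E11.75, beside 16.7 CPM for the XY control and 14.8 CPM for the KO at E11.5. In mesonephric epithelium they were Fgf9, Spry4 and Etv5, 3 of 9 beside 5.93%, and Etv5 (1.11) again kept it in 2 of 4. Fgf9 in that epithelium was at 70.4 CPM (61.5 to 80.3, 223 UMIs) in the KO at E11.75, beside 15.9, 14.1 and 12.03 CPM for the XY control, the KO at E11.5 and the XX control. The 3 samples at E11.5 were alike and the one at E11.75 was apart by a log2 difference of 2.14 (1.79 to 2.50), where stage and deletion cannot be told apart.

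Members were also higher at E11.75 than at E11.5 in KO types of the mesonephros, which had no member called lower at E11.5. Over the KO at E11.5, members called higher at E11.75 were Fgf9, Spry4 and Etv5 in mesonephric mesenchyme (3 of 9 beside 8.27% of genes), the same 3 in mesonephric epithelium (3 of 9 beside 9.63%) and these with Etv4 in mesonephric tubules (4 of 9 beside 6.7%). Etv5 kept 2-fold in 2, 2 and 0 of 4 alternatives in mesenchyme, epithelium and tubules, and Fgf9 in 2 of 4 in mesenchyme and tubules. The summed level differed by 0.70 (0.63 to 0.76) in mesenchyme, 0.93 (0.80 to 1.07) in tubules and 0.32 (0.14 to 0.49) in epithelium, where the medians of all genes were 0.25, 0.24 and 0.26.

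**Figure D4:**
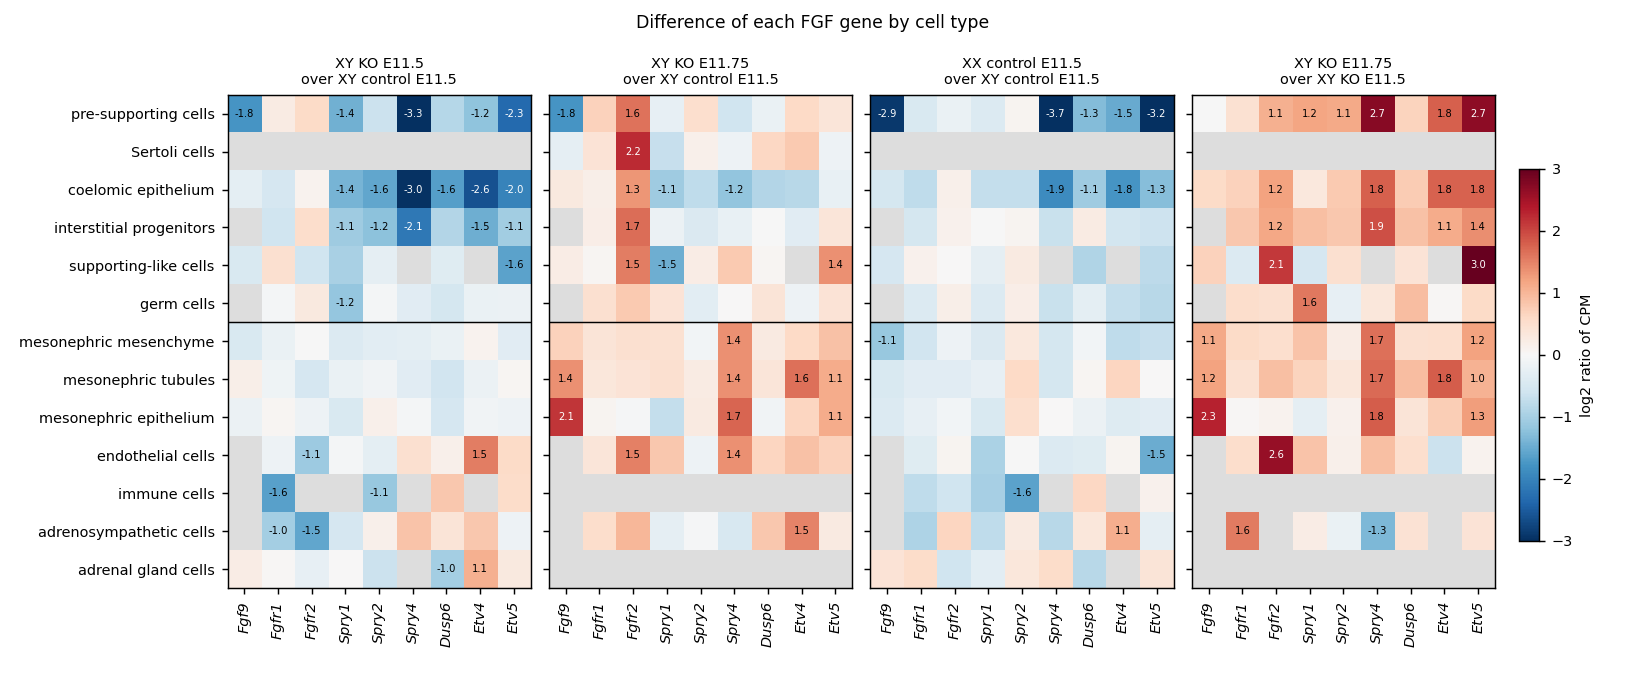
Log2 difference of each member (columns) in each cell type (rows). Panels show the XY KO at E11.5, the XY KO at E11.75 and the XX control over the XY control, and the XY KO at E11.75 over the XY KO at E11.5. Colour is limited to 3 in either direction, with grey where a sample had under 50 cells or both together under 20 UMIs. Numbers stand where the difference is at least 2-fold. In the XY KO at E11.5 the induced genes called lower in pre-supporting cells, coelomic epithelium and interstitial progenitors run from -1.05 to -3.33, and 9 lower values stand elsewhere: Fgf9 in pre-supporting cells and 8 in other cell types.

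Across the 13 cell types of the XY control the members had different orders. Fgf9 was highest in Sertoli cells, followed by adrenal gland cells (22.7 CPM), mesonephric epithelium (15.9 CPM), coelomic epithelium (11.96 CPM), mesonephric tubules (11.3 CPM), supporting-like cells (9.54 CPM) and pre-supporting cells (9.26 CPM). Each neighbour among these after the first had overlapping intervals, and a gap separated them from mesonephric mesenchyme (4.40 CPM). Germ cells and interstitial progenitors were at the bottom, with 0.143 and 0.632 CPM (1 and 3 UMIs).

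Fgfr1 was highest in interstitial progenitors (186.4 CPM) and mesonephric mesenchyme (163.0 CPM), and pre-supporting cells (30.3 CPM), Sertoli cells (29.6 CPM) and immune cells (29.2 CPM) were near its lower end with overlapping intervals. Fgfr2 was highest in mesonephric tubules (149.9 CPM), then adrenal gland cells (71.1 CPM), supporting-like cells (48.8 CPM) and pre-supporting cells (44.9 CPM), and these last 3 overlapped from each to the next. Its lowest level was in endothelial cells (6.93 CPM). The receptors thus differed in the type that led, a mesenchymal one for Fgfr1 and an epithelial one for Fgfr2.

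Spry4 was at its highest in pre-supporting cells, but interstitial progenitors, endothelial cells (21.7 CPM), Sertoli cells and germ cells (20.1 CPM) followed with each neighbour overlapping. Spry1 and Spry2 were at their lowest in the same pre-supporting cells, with Spry1 highest in supporting-like cells (60.4 CPM) and Spry2 in interstitial progenitors (64.2 CPM). For Spry2, Sertoli cells were close to that lowest level. Its runs gave 10.8 and 11.0 CPM in pre-supporting cells and 11.9 and 13.3 CPM in Sertoli cells, with overlapping intervals. Dusp6 was highest in endothelial cells (108.9 CPM) and adrenal gland cells (108.4 CPM), which overlapped.

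Etv4 and Etv5 were both highest in germ cells, at 89.4 and 158.8 CPM in the XY control, without overlap with the next type. Germ cells had almost no Fgf9. Their Etv5 was at 141.3, 211.2 and 88.9 CPM and their Etv4 at 78.2, 80.2 and 54.8 CPM in the KO at E11.5, the KO at E11.75 and the XX control, so neither was called in any comparison. Etv5 came next in Sertoli cells and then in pre-supporting cells, again with no overlap.

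**Figure D5:**
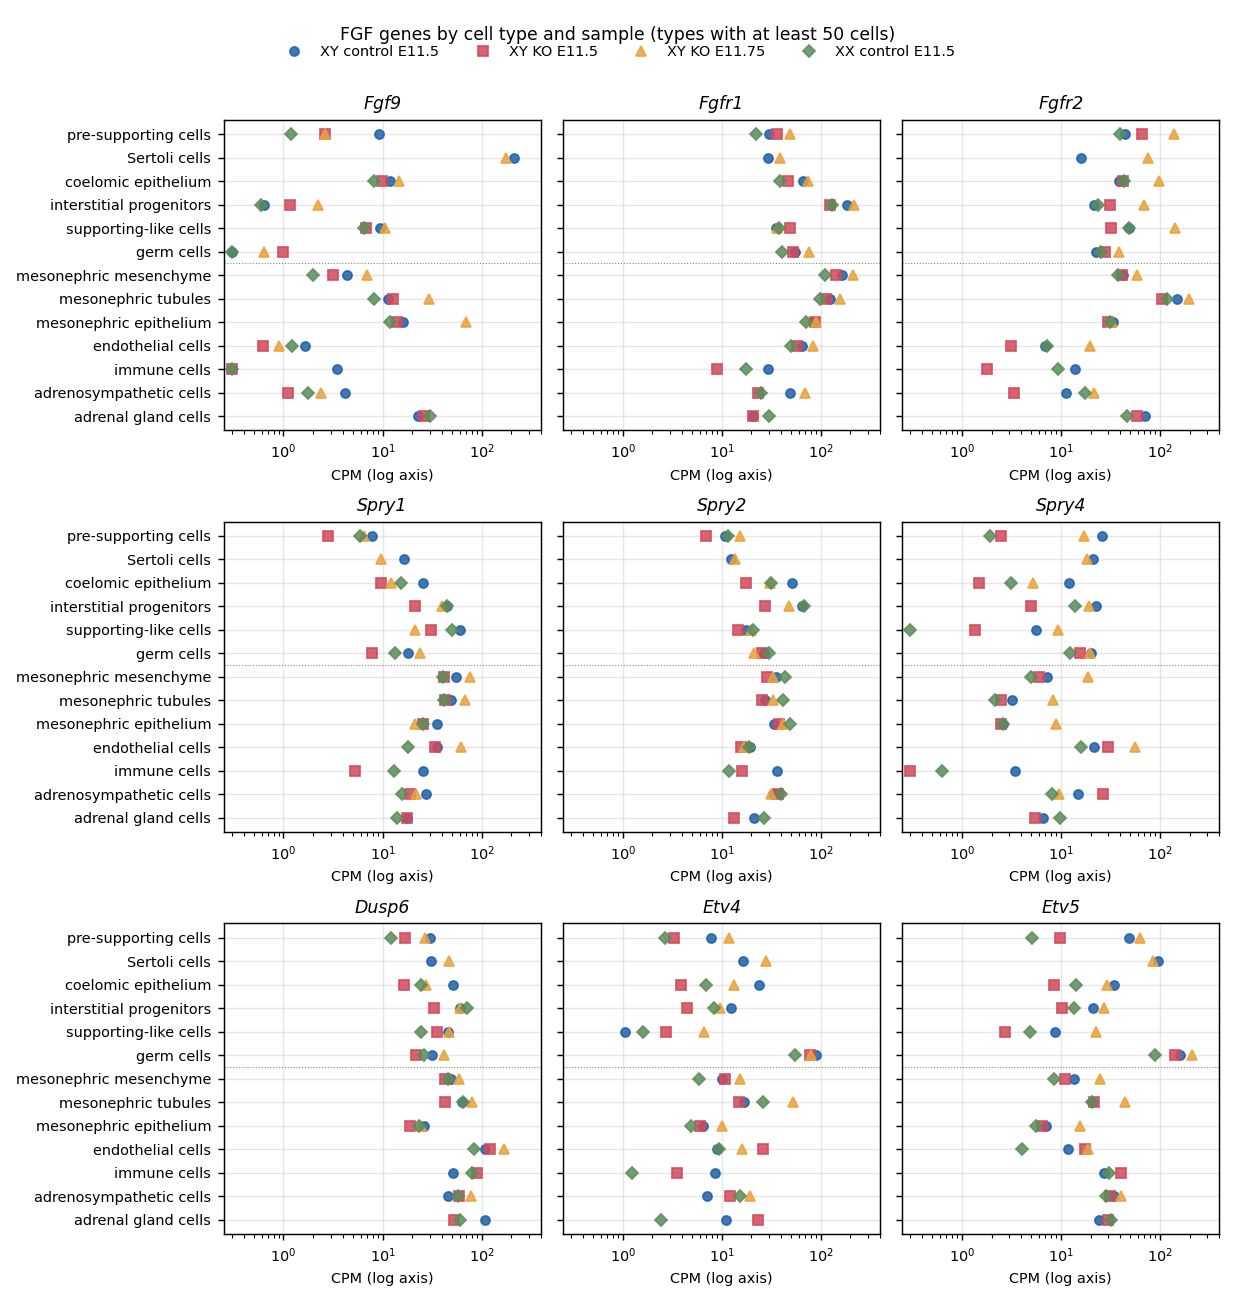
Level of each member (CPM, logarithmic axis) in each cell type with at least 50 cells, with 1 marker for each sample and levels below the lower axis limit drawn at that limit. Fgf9 is highest in Sertoli cells, Fgfr1 in interstitial progenitors and mesonephric mesenchyme, Fgfr2 in mesonephric tubules, and Etv4 and Etv5 in germ cells.

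The rest of the pathway was counted from lists of ligands, receptors and coreceptors, adaptors and kinases, feedback inhibitors, and transcription factors and early targets, with the 9 members left out. In pre-supporting cells of the KO at E11.5, 0 of 4 other ligands, 0 of 14 receptors and coreceptors, 1 of 21 adaptors and kinases, 1 of 12 feedback inhibitors and 2 of 12 transcription factors and targets that passed the minimum were called lower, beside 4.21% of genes. One receptor was called higher, beside 1.65% of genes. The named ones were Egr1, an immediate early gene of ERK signalling (7.80 CPM in the KO and 24.0 CPM in the XY control), Etv1, another ETS factor of the same subfamily (5.97 and 14.8 CPM), Dusp4, a nuclear phosphatase of ERK (6.97 and 15.7 CPM), Rps6ka3, which encodes an ERK-activated kinase (92.2 and 199.6 CPM), and Fgfr3, a receptor (3.15 and 1.14 CPM), the one that was higher. The 1 of 21 adaptors and kinases is a share near the background.

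In the KO at E11.75, 1 of 3 other ligands, 1 of 12 feedback inhibitors and 1 of 13 transcription factors and targets were called lower in pre-supporting cells, beside 3.13% of genes. They were the ligand Fgf18 (log2 difference -1.18, -3.34 to 0.31, from 4 and 17 UMIs), Fosl2, a member of the FOS family (-1.10), and Dusp4 (-1.03). Higher were 3 of 14 receptors and coreceptors, 1 of 21 adaptors and kinases and 4 of 13 transcription factors and targets, beside 6.66% of genes, and the 1 of 21 is below that share. They included Ccnd1, which encodes cyclin D1 (159.5 CPM in the KO and 42.9 CPM in the XY control), Flrt2, a membrane protein that can bind FGF receptors (66.7 and 22.2 CPM), Egr1 (56.7 and 24.0 CPM) and Myc (1.13). In the XX control 2 of 11 feedback inhibitors (Dusp4, -1.27, and Dusp7, -1.15) and 3 of 13 transcription factors and targets (Etv1, -1.99, Maff, -1.58, and Ccnd1, -1.28) were called lower, beside 3.27% of genes. Also lower there were 1 of 14 receptors and coreceptors, the heparan sulphate proteoglycan gene Sdc4 (-1.47), 1 of 4 other ligands, Fgf2 (-1.40), and 0 of 21 adaptors and kinases. Egr1 (1.02) and Egr2 (2.01) were higher in the XX control, beside 1.85% of genes, and so did not share the direction of Spry4 and Etv5.

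Transcripts that cell dissociation can induce were counted beside these. Of immediate early and stress genes, 2 of 11 were called lower in pre-supporting cells of the KO at E11.5 (4.21% of all genes) and 2 of 11 higher in the KO at E11.75 (6.66%). In the XX control 1 of 11 was lower (3.27%) and 2 of 11 were higher (1.85%). In the coelomic epithelium of the KO at E11.5, 4 of 12 were called lower beside 2.65% of genes, with Junb at 2.80 CPM beside 14.6 CPM and Egr1 at 8.41 CPM beside 58.6 CPM, chosen for mention after their values were seen. In interstitial progenitors 2 of 10 were lower beside 2.84%. Between the KO samples these genes were called higher at E11.75 as well, 3 of 11 in pre-supporting cells (9.19% of genes), 3 of 12 in the coelomic epithelium (5.34%) and 4 of 9 in interstitial progenitors (7.88%), with median log2 differences of 0.55, 0.57 and 1.0. The median share of mitochondrial UMIs was 4.26% in the XY control, 4.48% in the KO at E11.5, 5.67% in the KO at E11.75, and lowest in XX control cells, at 3.21%. The part of dissociation in the levels of the 6 induced genes was not tested.

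The genes whose levels were most like a member over the 48 combinations of cell type and sample with at least 50 cells are given as a description, since the points share libraries and depth. For Spry4 they were Map4 (Pearson r = 0.82), Iffo2 (0.78) and Cdr2l (0.77), and for Fgf9 Masp1 (0.78), Mmd2 (0.75) and Fbxo27 (0.73). Etv5 was most like Plaa (0.86) and Utp4 (0.83), and Utp4 was also the first for Etv4 (0.85). Dusp6 was most like Myc (0.81), Fgfr1 like Fblim1 (0.87), Fgfr2 like Epb41l5 (0.82), Spry1 like Plcl1 (0.76) and Spry2 like Cacng4 (0.73). Among the members the closest pairs were Etv4 with Etv5 (0.75) and Fgfr1 with Spry1 (0.68). Pairs of the 6 induced genes ran from -0.29 (Spry1 with Etv5) to 0.75, so their sum joins genes that did not all vary together. Fgf9 with the induced genes ran from -0.17 (Dusp6) to 0.09 (Etv5).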

How the data were processed

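The authors made the counts with Cell Ranger 6.1.1 on mm10, per the submitters' processing notes and the study's methods. The deposited table holds raw UMI counts for 52745 cells, and the deposited annotation gives each cell's sample, type and percent of mitochondrial UMIs as computed by the authors, who had removed low-quality cells and doublets. Deposited type names were kept. Both the members and the lists were chosen with earlier results of these data known.

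Counts were summed per type and sample and divided by the total of all genes. Log2 differences used a prior count of 0.5. Summed counts carry exact Poisson intervals, shares of cells exact Clopper-Pearson intervals, and differences exact binomial intervals. PCR duplicates are collapsed by UMIs, but cells of a pool are not replicates. The scripts were tested on simulated data. For shares, cells were thinned to 3000 UMIs.

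Named genes were the 9 members, list genes past 2-fold (at most the 10 largest per comparison, pre-supporting cells), Sox9, Sry, and for each member the genes with the highest Pearson r of log2(CPM + 5) among genes with at least 1000 UMIs. Alternatives were TMM factors (edgeR 4.0.16), median-of-ratios factors, a total without mitochondrial, ribosomal protein and globin genes, deep cells, thinned cells, mean CPM over cells, cells without Sox9 and Sry UMIs, Sertoli cells added, single runs, a prior of 5 and matching on 3′ UTR length. Single runs of the KO, the KO at E11.75 over the KO at E11.5, and other cell types were added after seeing the data. Python 3.11.15, numpy 2.4.6 and scipy 1.17.1 were used.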

Additional observations from a re-analysis of the deposited data

Results flagged for a closer look

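Members that were called in opposite directions in different cell types under the same comparison, with the XY control or between the KO samples, are listed here as log2 differences. Whether the cell types differ was not tested, since each group had 1 sample.

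Etv4 in the XY KO at E11.5 was lower than in the XY control in pre-supporting cells (-1.20), coelomic epithelium (-2.61) and interstitial progenitors (-1.47). It was higher in endothelial cells (1.53, 25.9 and 8.94 CPM) and adrenal gland cells (1.06, 23.1 and 11.0 CPM), the latter from 21 and 15 UMIs.

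Fgf9 in the XY KO at E11.75 was lower in pre-supporting cells (-1.78) and higher in mesonephric tubules (1.38) and mesonephric epithelium (2.14).

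Etv4 in the XX control was lower in pre-supporting cells (-1.52) and coelomic epithelium (-1.78) and higher in adrenosympathetic cells (1.10).

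Spry4 in the XY KO at E11.75 was lower than in the XY control in coelomic epithelium (-1.17). It was higher in mesonephric mesenchyme (1.37), mesonephric tubules (1.37), mesonephric epithelium (1.75) and endothelial cells (1.38), where it reached 56.3 CPM beside 21.7 CPM.

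Spry4 in the XY KO at E11.75 was lower than in the XY KO at E11.5 in adrenosympathetic cells (-1.34, with a 95% interval of -3.47 to 0.06). It was higher in pre-supporting cells (2.73), coelomic epithelium (1.79), interstitial progenitors (1.93), mesonephric mesenchyme (1.66), mesonephric tubules (1.71) and mesonephric epithelium (1.81).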

How the results depend on the processing

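No paired analysis was possible because each group had 1 sample. Of 523 alternative values for 98 called differences, 522 kept their direction and 453 also stayed past 2-fold. The exception in direction was Fgf9 in pre-supporting cells of the XY KO at E11.5, -1.77 as a log2 difference. It came to 0.25 among cells with no Sox9 and no Sry UMI, from 16 UMIs in the KO and 13 in the XY control. These counts are too low to settle a direction. In the same cells Fgf9 was -0.72 in the XY KO at E11.75 (5 UMIs) and -1.74 in the XX control (4 UMIs). Thinning to 3000 UMIs gave -3.09 for Fgf9 and -4.27 for Spry4 in the XY KO at E11.5, from 3 and 4 cells with a UMI. Adding Sertoli cells gave -4.22 for Fgf9 in the XY KO at E11.5 and -6.0 in the XX control, with 752, 24 and 2 Sertoli cells in the XY control, the XY KO at E11.5 and the XX control. Etv4 in the XY KO at E11.5 stayed past 2-fold in 11 of 14 alternatives (-1.92 to -0.63). The summed difference between the KO samples in interstitial progenitors, 1.01, was under 2-fold in 4 of 4 (0.71 to 0.91), and in the coelomic epithelium, 1.04, in 3 of 4. In pre-supporting cells of the XY KO at E11.5, 530 of 12596 genes were called lower, 2500 with a minimum of 1 UMI, 217 with a minimum of 100 UMIs and 1447 with a limit of 1.5-fold, and the members called were 5 of 9, 5 of 9, 2 of 6 and 7 of 9. Low counts limit Fgf9, Spry1, Spry4 and Etv4 in pre-supporting cells without the cluster, which rest on 12 to 20 UMIs at their lowest.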
